A study of Mus musculus with 12 samples.

Results

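The mitochondrial ribosomal protein genes were read in the Ribo-seq table of mouse livers, in which the reads on a gene are fragments of RNA that ribosomes had protected from digestion. The genes were taken by symbol, as every row named Mrpl or Mrps followed by a number and at most 1 letter. This gave 78 of the 25033 rows, 49 with an Mrpl symbol (large subunit) and 29 with an Mrps symbol (small subunit). The livers came from male C57BL/6 mice, 16 weeks old when sampled, that had been fed a high-fat diet alone (HFD, 3 libraries) or that diet supplemented with 0.33% (by weight) lycopene (LYC, 3 libraries) for 8 weeks from week 8 of age. Lycopene is a carotenoid of tomato. Both groups were wild type and both received the high-fat diet, and no group on a normal diet was analysed here. The study asked what lycopene changes in the translation of genes in a fatty liver. The labels say that RNA or footprints were pooled before library construction, while the paper calls the 3 libraries of a group biological replicates, so the p-values below may measure technical as well as animal spread.

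Mitochondria carry their own ribosome, the mitoribosome, which makes the few proteins of the respiratory chain and ATP synthase that mitochondrial DNA encodes. All of its proteins are encoded in the nucleus, translated by cytosolic ribosomes and imported, so the footprints on these genes are those of cytosolic ribosomes. Footprints on a gene depend on the amount of its mRNA as well as on its translation. A change in mRNA and a change in translation cannot be told apart here. The large subunit joins amino acids and holds the stalk that recruits translation factors, and the small subunit binds the mRNA and reads its codons. Many of the proteins have a bacterial counterpart, and others were added in the lineage leading to animals. Liver is rich in mitochondria, and the mitoribosome is known there as part of the supply of oxidative phosphorylation.

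The authors deposited RPKM values (reads scaled to the length of the gene and to the total of the library) for these libraries, and read numbers were worked back from the steps between values. Library totals were 834410 to 4405541 reads in HFD and 311050 to 412116 reads in LYC, so 1 read on a gene of 1 kb was worth 0.227 to 1.2 RPKM in HFD and 2.43 to 3.21 RPKM in LYC. Levels below are RPKM divided by the TMM factor of the library, edgeR's scaling between libraries, and are called scaled RPKM. The 6 hepatocyte markers summed to 36184 to 41382 scaled RPKM in HFD and 29877 to 42868 in LYC. Summed markers of stellate and endothelial cells overlapped between the groups, at 9.75 to 138. Those of Kupffer cells (86.4 to 99.1 in HFD, 105 to 151 in LYC) and erythroid cells (301 to 495 and 496 to 776) were higher in each LYC library. Those of bile duct cells (3.94 to 4.96 and 0.772 to 2.54) and lymphocytes (3.12 to 3.41 and 0.609 to 3.01) were lower. Without the TMM factors the groups overlapped for the markers of Kupffer and erythroid cells. The part of these cell types in the results below was not tested. None of the 31 markers was without a read in all 6 libraries. In bulk liver, fewer cells of a type and less RNA per cell cannot be told apart.

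Every one of the 78 genes had reads, but few of them in LYC. Summed over a group, a gene had 32 to 458 reads in HFD (median 140) and 0 to 59 reads in LYC (median 20). All 78 together had 11875 reads in HFD and 1745 in LYC. No gene lacked a read in an HFD library, and 5, 4 and 7 genes lacked one in LYC1, LYC2 and LYC3. The filter on low reads (edgeR's filterByExpr) kept 48 of the 78 genes, 31 of the large and 17 of the small subunit, and the other 30 have levels but no test. A gene could pass only with enough reads in at least 3 libraries, so the counts over the 48 genes tested do not describe all 78.

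**Figure D1:**
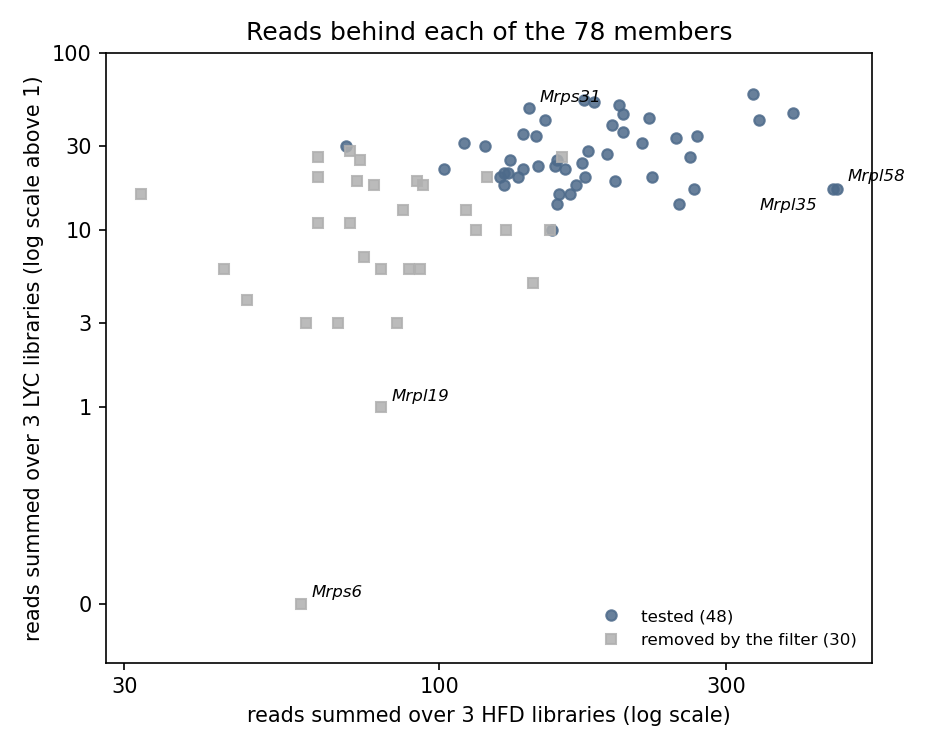
Each point is a mitochondrial ribosomal protein gene, placed by its reads summed over the 3 HFD libraries (x axis, log scale) and the 3 LYC libraries (y axis, log scale above 1, with 0 marked). Circles are the 48 genes tested and squares the 30 removed by the filter, and the median gene had 140 reads in HFD and 20 in LYC.

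Footprints lie on the coding part of an mRNA, whereas the RPKM of the authors divides by the full length of the gene, which ran from 412 to 6712 bases here. Levels were therefore also set per kilobase of the longest RefSeq coding sequence. On that scale the 78 genes spanned 5.01 to 84.5 in HFD with a median of 24.6, and their median in LYC was 34.7. Mrpl35, a protein of the large subunit with a bacterial counterpart, stood at 84.5 in HFD, ahead of Mrpl58 at 81.6, Mrpl57 at 71.3, Mrpl12 at 71.2 and Mrpl34 at 69.9. Mrpl57 and the 4 genes named next were chosen after their values were seen. Exons of 20 of the 78 genes overlap those of another gene, among them Mrpl57 with Ska3 on the opposite strand, and their reads may be mixed with those of that gene. At the low end stood Mrps9 at 5.01, Mrps35 at 7.87, Mrpl47 at 8.27 and Mrpl3 at 8.32. By RPKM over the full length the order in HFD was led by Mrpl58 with 67.2 ± 5.01 scaled RPKM (SD, n = 3), then Mrpl12 with 44.0 ± 11, Mrpl42 with 43.8 ± 7.83, Mrpl14 with 42.1 ± 8.34 and Mrpl34 with 30.2 ± 9.94. Mrpl58 lay above Mrpl12 in all 3 HFD libraries, while Mrpl12, Mrpl42 and Mrpl14 did not differ beyond their spread. The median gene had 12.9 scaled RPKM in HFD, against 93.4 for the 80 cytosolic ribosomal protein genes. For the 85 nuclear genes of the respiratory chain and ATP synthase the median was 82.5.

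A few mitochondrial ribosomal protein genes changed, in both directions. Footprints rose in LYC on Mrps18c, Mrps31 and Mrps14 of the small subunit and on Mrpl24 of the large subunit, and fell on Mrpl58 and Mrpl35 of the large subunit. The changes spanned a log2 fold change of 1.32 to 1.88 upward and of -1.37 to -1.59 downward. The remaining 42 genes tested did not pass. Each gene was tested with limma on log2(scaled RPKM + 1), two-sided, fitted over 5667 genes, and called where its log2 fold change passed 1 in size and its p, not adjusted, was below 0.01. The pseudocount of 1 makes the fold change of a low gene too small. The 4 genes called higher were 8.33% of the 48 tested, where 6.97% of all genes tested were called higher. Mrps18c, 1 of the 4, passed the filter only through LYC, the group where it was high. The 2 called lower were 4.17%, where 6.49% of all genes were called lower. Both shares lie near those of all genes in this fit. On recovered reads the share called higher was 14.6% against 8.63% of all genes with edgeR, and 16.7% against 9.09% with DESeq2. Both of these include Mrps18c and Mrps21, which passed the filter only through LYC, so they are not read as a result. At an adjusted p below 0.05, in either direction, 5 of the 48 genes passed against 11.8% of all genes.

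Mrps18c, 1 of 3 paralogues of bacterial protein S18 and the one that sits in the small subunit at the bacterial place, lies at chr5:100798759-100804467 (GRCm38.p6, plus strand). Its footprints measured 17.6, 14.3 and 11.6 scaled RPKM in HFD1, HFD2 and HFD3, against 94.6, 38.2 and 47.2 in LYC1, LYC2 and LYC3. Every LYC library stood above every HFD library, with LYC1 highest. The log2 fold change was 1.88 (SE 0.37, adjusted p = 0.0151 by limma). It rested on 15, 6 and 9 reads in the LYC libraries against 25, 40 and 5 in the HFD libraries. Mrps18c passed the filter, a cutoff of 16 reads on the scale of 1000000 library reads, only through the LYC libraries, so its place among the genes tested depended on being high there. Without the filter it was still called (log2 fold change 1.88).

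Mrps31, a small subunit protein without a bacterial counterpart, lies at chr8:22410449-22429669 (plus strand). It had 12.6, 8.65 and 9.13 scaled RPKM in HFD, against 39.2, 29.2 and 27.4 in LYC. The groups did not overlap. The log2 fold change was 1.56 (SE 0.29, adjusted p = 0.0125 by limma), with 49 reads in LYC in all.

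Mrpl24, a large subunit protein with a counterpart among the bacterial proteins that start assembly of that subunit, lies at chr3:87918131-87923450 (plus strand). It measured 30.9, 16.1 and 16.0 scaled RPKM in HFD and 53.4, 60.7 and 52.7 in LYC. HFD1 was the high library of its group, and all LYC libraries lay above it. The log2 fold change was 1.43 (SE 0.31, adjusted p = 0.0211 by limma). An exon of Rrnad1 on the opposite strand overlaps Mrpl24, and whether the counting used strand is not given in the sources used here, so reads of the 2 genes may be mixed.

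Mrps14, a small subunit protein with a bacterial counterpart in the head of the subunit, lies at chr1:160195215-160201186 (plus strand). It had 8.05, 8.29 and 6.38 scaled RPKM in HFD and 20.4, 28.6 and 14.4 in LYC. The groups did not overlap, and LYC3 was the lowest of its group. The log2 fold change was 1.32 (SE 0.33, adjusted p = 0.0346 by limma). This call was lost without the TMM factors and in the fits without HFD1 or HFD3, where the log2 fold changes were 1.06, 1.35 and 1.2 and the unadjusted p no longer passed 0.01. Mrps21, the counterpart of bacterial S21, lay just outside the threshold. It had 24.9, 21.5 and 29.8 scaled RPKM in HFD and 55.9, 94.1 and 36.1 in LYC. Its log2 fold change was 1.16 (SE 0.36) with an unadjusted limma p of 0.0102 and an adjusted p of 0.0685. The groups did not overlap either, and Mrps21 too passed the filter only through LYC. It was called higher with a pseudocount of 5, with edgeR, with DESeq2 and without LYC3, and its log2 fold change was 0.59 with the trend on gene length removed.

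Mrpl58 encodes a peptidyl-tRNA hydrolase (also known as ICT1) that is built into the large subunit and can free stalled mitoribosomes. It lies at chr11:115403724-115412674 (plus strand). Its footprints measured 63.2, 65.7 and 72.8 scaled RPKM in HFD and 21.0, 33.9 and 14.0 in LYC. The HFD libraries were close together, and each LYC library lay well below them. The log2 fold change was -1.59 (SE 0.33, adjusted p = 0.0187 by limma), and 17 LYC reads stood behind it. Mrpl58 had both the highest full-length RPKM in HFD and the largest fall among those tested. The HFD level is part of the fold change, so these are not separate observations.

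Mrpl35, the counterpart of bacterial L35, lies at chr6:71812997-71823784 (minus strand). It had 10.1, 14.5 and 14.2 scaled RPKM in HFD and 5.14, 6.93 and 2.14 in LYC. The groups did not overlap. The log2 fold change was -1.37 (SE 0.40), with an unadjusted limma p of 0.00802, just inside the threshold, and an adjusted p of 0.0589. This call was lost in the fit with the replicate number as a block and in several other settings given in the closing section.

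The next genes by p in the lower direction were also of the large subunit and did not pass. Mrpl9, the counterpart of bacterial L9, had 12.8, 18.7 and 18.2 scaled RPKM in HFD and 11.9, 4.00 and 9.87 in LYC (log2 fold change -0.97, SE 0.40, adjusted p = 0.149 by limma). Mrpl50, which has no bacterial counterpart, had 13.3, 14.1 and 11.7 in HFD and 7.53, 9.13 and 7.51 in LYC (log2 fold change -0.63, SE 0.28, adjusted p = 0.169 by limma). Mrpl34, a small protein with a bacterial counterpart, had 25.7, 23.3 and 41.6 in HFD and 19.6, 4.95 and 20.4 in LYC (log2 fold change -1.13, SE 0.51, adjusted p = 0.170 by limma). In all of these the LYC libraries lay below the HFD libraries without overlap. Mrpl34 rested on 4, 1 and 5 LYC reads, and Mrpl34 and Mrpl9 passed the filter only through HFD.

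**Figure D2:**
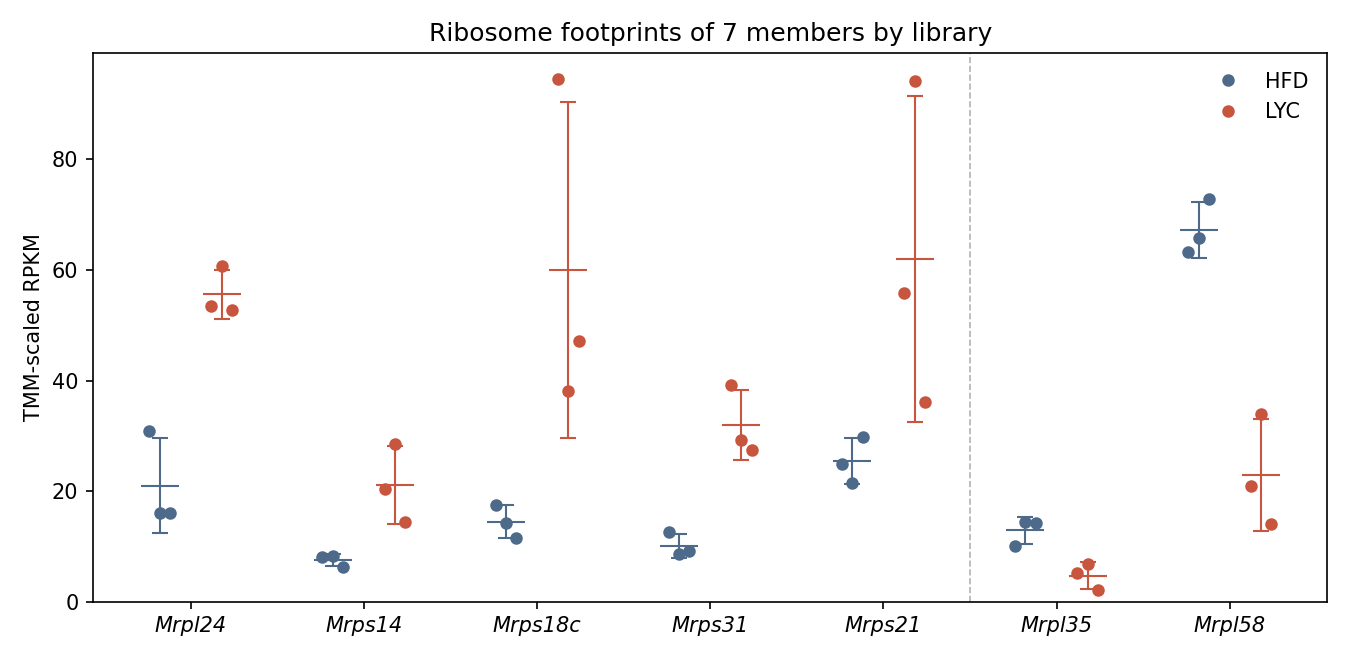
Scaled RPKM (y axis) of the 4 genes called higher, of Mrps21 just outside the threshold, and of the 2 genes called lower (right of the dashed line). Points are libraries (3 HFD, 3 LYC), and bars are the mean ± SD. In none of the 7 genes do the HFD and LYC libraries overlap, with or without the TMM factors.

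Among the 48 genes tested, every LYC library stood above every HFD library in 11 and below in 5. Over all genes tested these patterns were found in 18.7% and 19.3%. Without the TMM factors the counts were 7 and 5, against 10.0% and 27.6% of all genes tested. Of the 30 genes without a test, 6 had every LYC library above (20%) and 4 every LYC library below (13.3%), against 3.27% and 17.5% of all 10082 genes that had a read but no test. These members held a median of 93.5 reads over the 6 libraries and all such genes 22, so the shares are not matched for depth. Without the factors the counts were 4 and 6, against 1.96% and 19.9%.

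The sequence before the start of the called genes is shown because genes that moved in either direction can be set side by side. RefSeq (GRCm38.p6) gave a promoter window for 69 of the 78 genes. The 250 bases before the start lay inside annotated exons of the same gene for Mrpl24 and Mrps31, so these are not shown. For Mrps18c the 97 bases next to the start are shown, as the rest lies in an exon of the neighbour Helq, and 28 bases of the Mrpl58 window are exonic in another transcript of Mrpl58. The windows are written 5′ to 3′ on the strand of the gene, and capitals mark the letters CCGGAAG.
Mrpl58 (chr11:115403502-115403751, plus strand): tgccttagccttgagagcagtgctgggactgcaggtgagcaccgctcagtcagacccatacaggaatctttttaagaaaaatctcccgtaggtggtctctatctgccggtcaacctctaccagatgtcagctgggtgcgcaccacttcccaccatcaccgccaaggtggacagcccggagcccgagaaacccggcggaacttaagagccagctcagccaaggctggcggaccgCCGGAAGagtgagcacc
Mrpl35 (chr6:71823785-71824034, minus strand): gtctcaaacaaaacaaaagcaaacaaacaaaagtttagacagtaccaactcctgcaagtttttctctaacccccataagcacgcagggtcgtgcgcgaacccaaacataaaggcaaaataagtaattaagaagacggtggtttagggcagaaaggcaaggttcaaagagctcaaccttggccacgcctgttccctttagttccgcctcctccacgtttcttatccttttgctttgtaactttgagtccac
Mrps14 (chr1:160194965-160195214, plus strand): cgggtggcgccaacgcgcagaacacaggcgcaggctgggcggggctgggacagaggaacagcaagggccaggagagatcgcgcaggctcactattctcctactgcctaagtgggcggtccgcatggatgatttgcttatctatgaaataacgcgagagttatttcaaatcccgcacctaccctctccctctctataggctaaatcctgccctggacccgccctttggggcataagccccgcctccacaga
Mrps18c (chr5:100798662-100798758, plus strand): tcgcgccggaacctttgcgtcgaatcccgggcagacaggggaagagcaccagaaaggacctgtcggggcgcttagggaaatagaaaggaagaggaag

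Cores of 3 motifs known from promoters of nuclear genes for mitochondrial proteins were searched on both strands in windows of 300 bases (250 before and 50 after the start). CCGGAAG, the core read by ETS factors such as NRF-2, stood in 36.2% of the 69 windows of mitochondrial ribosomal protein genes and in 9.12% of 27025 windows of all genes. GCGCATG, part of the site read by NRF-1, stood in 11.6% against 4.04%, and AAGATGG, part of the site read by YY1, in 18.8% against 6.48%. The last 3 letters of the first motif can overlap the first 3 of the last. The 250 bases before the start were richer in G and C in these genes, with a median of 58.4% against 52.0%. CCGGAAG was found in Mrpl58, which fell, and in Mrps18c, which rose, there on the opposite strand in the stretch not shown. AAGATGG was found in Mrpl35, after the start. None of the 3 motifs was found in the window of Mrps14. None was found for Mrpl24 and Mrps31, but their windows lay inside the gene and do not cover the gene starts given above. A match is a string of letters and not a measured site.

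Some genes were followed for their place in the mitoribosome, whatever their change. The stalk of the large subunit, which contacts translation factors, is built from Mrpl12 on the base protein Mrpl10, with Mrpl11 at its foot. Mrpl12 had 32.0, 46.3 and 53.6 scaled RPKM in HFD and 16.1, 62.0 and 59.0 in LYC, so the LYC libraries lay on both sides of HFD (log2 fold change -0.13, 95% interval -1.25 to 0.98). Mrpl10 had 19.9, 23.9 and 19.9 in HFD and 17.3, 31.1 and 27.2 in LYC (log2 fold change 0.20, 95% interval -0.47 to 0.87). Mrpl11 had 6.12, 5.23 and 3.65 in HFD and 3.30, 1.11 and 0.914 in LYC, below HFD in each library but on only 3, 1 and 1 reads and without a test. Mrpl10 and Mrpl12 were not called. Mrpl11 lay past the filter's cutoff in 2 HFD libraries and in no LYC library, so the fit without LYC1, in which it was tested and called lower, took it in through HFD, the group where it was high, and that call is not read as a result.

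Mrps12, the counterpart of the bacterial protein at the decoding centre, measured 19.0, 19.8 and 16.1 scaled RPKM in HFD and 4.37, 17.7 and 18.2 in LYC, where LYC1 held 1 read. It was not tested. Mrps6, the counterpart of bacterial S6, had 22, 33 and 4 reads in the HFD libraries (9.95, 7.60 and 5.99 scaled RPKM) and no read in any LYC library. It was the only one of the 78 genes with none. At the depth of LYC, 3 reads per library would correspond to a mean of 11.5 scaled RPKM on this gene, above its HFD mean of 7.85, so no fold is given. Mrps6 also shares exon sequence with Slc5a3 on the same strand.

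The other S18 paralogues did not follow Mrps18c past the threshold. Mrps18a, whose protein sits in the large subunit, had 16.3, 21.0 and 21.6 scaled RPKM in HFD and 25.6, 33.3 and 27.4 in LYC. With the TMM factors the groups did not overlap, with a log2 fold change of 0.53 (95% interval -0.06 to 1.12). Without them they did, as HFD2 at 26.5 RPKM lay above LYC1 at 20.5 and LYC3 at 25.3, and the log2 fold change was 0.26. Mrps18b, in the small subunit beside Mrps18c, had 17.9, 17.2 and 18.7 in HFD, against 14.9, 48.2 and 7.44 in LYC. Its LYC libraries spread to both sides of tight HFD values (log2 fold change -0.01, 95% interval -1.29 to 1.26), and it shares exon sequence with Gm16279 on the opposite strand. The difference between paralogues was not tested. Mrps30, also a large subunit protein in spite of its symbol, had 6.88, 9.26 and 12.5 in HFD and 21.9, 8.05 and 9.94 in LYC (log2 fold change 0.35, 95% interval -0.59 to 1.29). Mrps36, now known as a component of the 2-oxoglutarate dehydrogenase complex and not of the mitoribosome, had 4.93, 8.78 and 4.90 in HFD and 0, 4.47 and 11 in LYC, on 4 LYC reads in all and without a test.

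The remaining leaders by level did not pass either. Mrpl42, which has no bacterial counterpart, had 35.1, 45.9 and 50.3 scaled RPKM in HFD and 56.4, 38 and 54.8 in LYC (log2 fold change 0.17, 95% interval -0.44 to 0.79). Mrpl14, at the face of the large subunit that meets the small one, had 40.5, 34.6 and 51.0 in HFD and 35.9, 77.6 and 38.3 in LYC (log2 fold change 0.19, 95% interval -0.58 to 0.96). Both overlapped between the groups.

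Set by subunit, the large subunit had 1 gene called higher and 2 called lower among 31 tested (3.23% and 6.45%), and the small subunit 3 called higher and 0 called lower among 17 (17.6% and 0%). Over all genes tested 6.97% were called higher and 6.49% lower, and the difference between the subunits was not tested. The 3 small subunit calls include Mrps18c, which the filter kept for its LYC reads. The median log2 fold change was 0.22 for the large subunit (range -1.59 to 1.43) and 0.14 for the small (range -1.09 to 1.88). Over all 48 genes it was 0.21, against -0.10 over all genes tested, and turned to -0.04 against -0.36 without the TMM factors. The distance between the 48 genes and all genes was 0.31 with the factors and 0.32 without them, but 0.12 with a trend on gene length removed, 0.42 with edgeR, 0.43 with DESeq2 and 0.66 without LYC3. By point estimate 32 of the 48 genes were higher (66.7%), against 44.9% of all genes tested, and 22 of 48 without the factors. With the genes placed by where the protein sits (Mrps18a and Mrps30 in the large subunit, Mrps36 in neither), the medians were 0.27 for 33 genes and 0.04 for 15. The 28 tested genes with a bacterial counterpart had a median of 0.20 and the 16 without one 0.31. The median of log2(scaled RPKM + 1) in a single library was 4.07 ± 0.0635 in HFD and 4.37 ± 0.41 in LYC for the large subunit (SD, n = 3), and 4.04 ± 0.118 and 4.43 ± 0.475 for the small subunit. In both subunits LYC1 and LYC2 lay above every HFD library and LYC3 did not. Without the TMM factors only LYC2 lay above every HFD library, in both subunits.

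**Figure D3:**
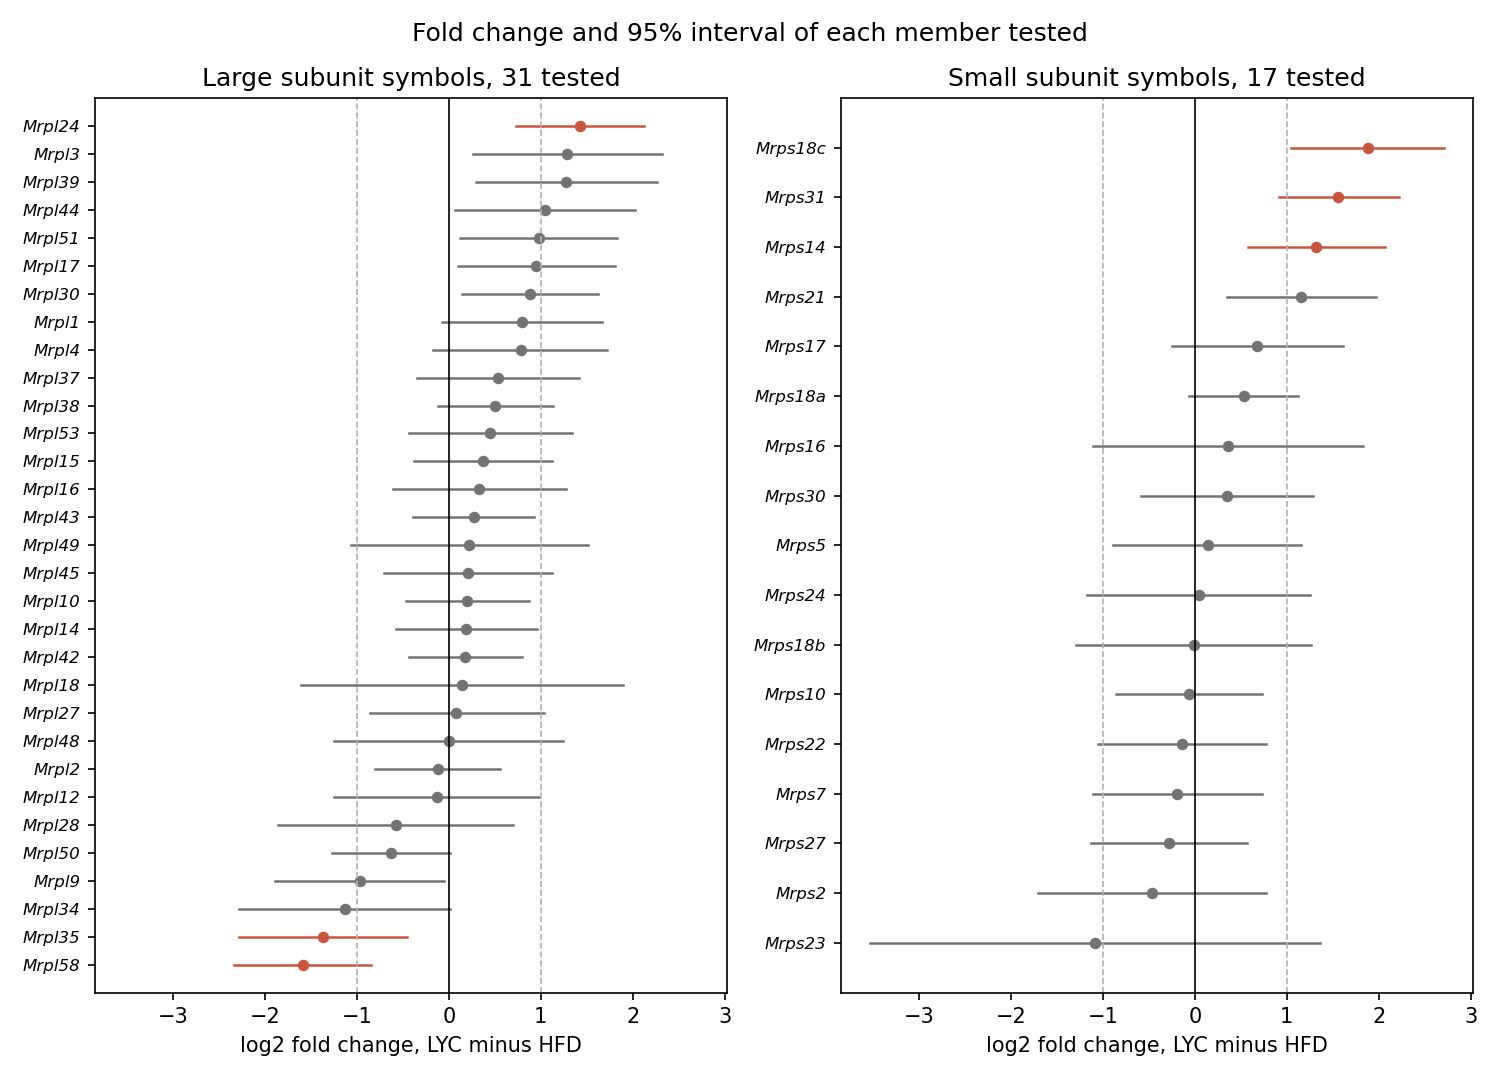
Log2 fold change of LYC minus HFD (x axis) with its 95% interval for each of the 31 large subunit (left) and 17 small subunit genes (right) tested. Dashed lines mark a change of 1 in either direction, and the 6 genes called are coloured. Most intervals include 0.

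The reads of all members of a subunit were also summed in each library, which includes the genes without a test. Scaled to 1000000 library reads and by the TMM factor (scaled RPM), the large subunit took 862, 875 and 981 in HFD, against 1197, 1398 and 861 in LYC. The small subunit took 404, 399 and 414 in HFD, against 639, 752 and 437 in LYC. For the small subunit every LYC library stood above HFD, and for the large subunit LYC3 did not. Without the TMM factor the groups overlapped in both subunits, and the small subunit took 420, 504 and 424 RPM in HFD and 512, 756 and 403 in LYC. The ratio of large to small subunit reads, which no scaling factor enters, was 2.14, 2.19 and 2.37 in HFD, against 1.87, 1.86 and 1.97 in LYC. The groups did not overlap, with means of 2.23 ± 0.124 and 1.90 ± 0.0606 (SD, n = 3). Without Mrpl58 and Mrpl35, an alternative added after the values were seen, the ratio was 1.92, 1.93 and 2.11 in HFD and 1.82, 1.79 and 1.93 in LYC, and the groups met. No test was made of these sums.

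**Figure D4:**
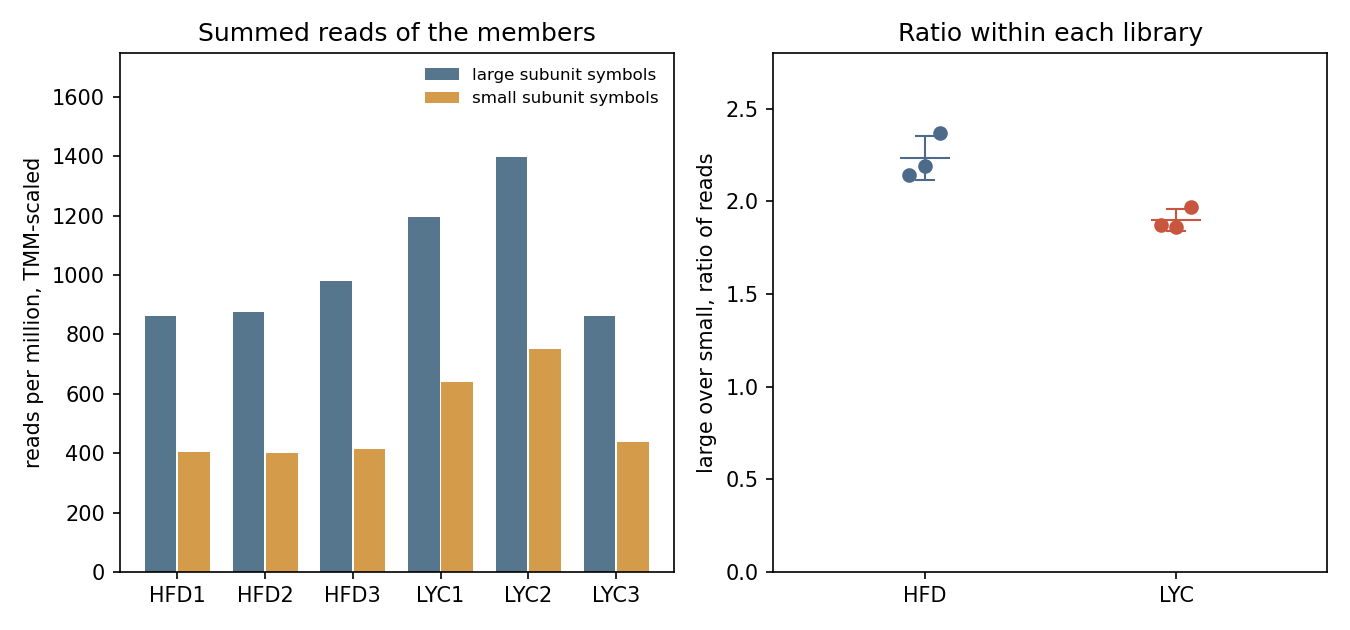
Left, summed scaled RPM of the 49 large and 29 small subunit genes in each of the 6 libraries. Right, their ratio within each library, with the mean ± SD of 3 libraries, which lies between 2.14 and 2.37 in HFD and between 1.86 and 1.97 in LYC.

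The median level of the 48 genes tested was 15.4, 15.7 and 16.3 scaled RPKM in HFD and 20.8, 26.1 and 14.3 in LYC. The LYC medians thus spread further than the HFD medians. LYC2 was the highest of its group in 27 of the 48 genes and LYC3 the lowest in 25, and in HFD the matching counts were 27 for HFD3 and 22 for HFD1. Without LYC3, 17 of 66 genes tested were called higher (25.8%), against 7.79% of all genes in that fit, and 1 was called lower (1.52%, against 10.4%). Of the 17, Mrpl13, Mrpl46, Mrpl54, Mrps18c, Mrps21, Mrps33 and Mrps35 lay past the main filter's cutoff in no HFD library. Their place in that fit may depend on being high in LYC, so the share of 25.8% is not read as a result. Without LYC1 there were 4 higher (6.15%, against 5.59% of all genes) and 3 lower (4.62%, against 6.28%). Without LYC2 there were 5 higher (7.81%, against 6.51%) and 2 lower (3.12%, against 6.78%). Mrps18c among the 4 and the 5, and Mrps15 among the 5, lay past the main filter's cutoff in no HFD library. Of the 3 lower without LYC1, Mrpl11 lay past it in no LYC library and Mrpl28 in no LYC library but LYC1. Their place in these fits may depend on the group where they were high, so these shares are not read as results either. LYC2 also had the lowest sum of hepatocyte markers (29877) and of endothelial markers (9.75, against 72.3 in LYC1 and 108 in LYC3), and the part of these in the result was not tested. Mrps28, chosen after its values were seen, shows how far a library can stand apart, with 22 reads in LYC2 against 2 each in LYC1 and LYC3.

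Over all 5667 genes tested, Pearson's r between log2 gene length and log2 fold change was -0.32, and the mitochondrial ribosomal protein genes are short, with a median length of 1064 bases over the 78 against 2983 over all genes tested. With the trend on length removed from each library, the median of the 48 genes fell from 0.21 to 0.10, its distance to all genes from 0.31 to 0.12, and the genes with a higher point estimate from 32 to 27. Among the 48 genes themselves, which share libraries and depth, r with log2 length was -0.04. Against the log2 level in HFD, r over the 48 genes was -0.32. That level is itself part of the fold change, so this r is not read as a result.

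The partners of the mitoribosome were few in number among the genes tested. Of 5 mitoribosome proteins with other symbols found in the table, 4 were tested and 0 called (0 had an unadjusted p under 0.05), with point estimates from -0.31 for Dap3 to 0.71 for Aurkaip1. Of 13 translation factors of mitochondria 7 were tested, and Tufm, the elongation factor that brings aminoacyl-tRNA to the mitoribosome, was higher with 31.8 ± 2.8 scaled RPKM in HFD and 68.9 ± 5.82 in LYC (SD, n = 3, log2 fold change 1.09, adjusted p = 0.0195 by limma). Mrrf, the ribosome recycling factor, had 8.50 ± 2.46 and 3.13 ± 2.21 (log2 fold change -1.30, adjusted p = 0.0851 by limma) and was not called. Of 20 assembly factors 3 were tested and 0 called, with 0 at an unadjusted p under 0.05. Of 15 genes that mitochondrial DNA encodes, 0 were found under the symbols searched, so these genes were not analysed here. Of the nuclear genes of the respiratory chain and ATP synthase, 24 of 77 tested were called higher (31.2%, against 6.97% of all genes). In that list 1 was called lower (1.3%, against 6.49%), and the median log2 fold change was 0.75. Of the cytosolic ribosomal protein genes, 6 of 78 were called higher (7.69%) and 1 lower (1.28%), with a median of 0.30. These 2 lists had median lengths of 719 and 682 bases and median HFD levels of 82.5 and 93.4 scaled RPKM. Over all genes tested the medians were 2983 bases and 13.1 scaled RPKM, so the shares are not matched for length or depth. The difference between these lists and the mitochondrial ribosomal protein genes was not tested.

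A second deposited table is labelled RNA-seq and holds counts, but each of its columns followed 1 Ribo-seq library. After removal of the group means, the correlation across 5623 genes with the best matching Ribo-seq library was 0.95 to 0.98. It is therefore described apart and gives no separate measure of mRNA. By edgeR's quasi-likelihood test, 47 of the 78 genes could be tested there, with 6 called higher (Mrpl17, Mrpl24, Mrpl39, Mrps14, Mrps21 and Mrps31) and 2 lower (Mrpl35 and Mrpl58). Of all genes tested there, 9.31% were called higher and 7.33% lower. The median log2 fold change was 0.48 against -0.03 over all genes. Of 45 genes tested in both tables, 41 had the same sign. Lars2, the mitochondrial leucyl-tRNA synthetase, held between 6.68% and 15.0% of an HFD column and between 35.9% and 40.3% of a LYC column. Leaving it out before scaling gave counts of 6 and 2 among 44 genes tested (13.6% and 4.55%, against 9.16% and 7.65% of all genes).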

How the data were processed

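Livers of mice on HFD or LYC gave 6 Ribo-seq libraries and 6 libraries labelled RNA-seq, 3 per group and kind. Groups were taken from the sample titles and source names, and the lycopene feed from the titles and the paper, as the treatment label names only the high-fat diet. For Ribo-seq the authors deposited RPKM values for each library. They trimmed reads with cutadapt, cleaned them with bowtie2, aligned with STAR to GRCm38/mm10 and counted with FANSE2. The table labelled RNA-seq, by like steps, was deposited as read counts beside RPKM. Versions, annotation and strand setting are not given in the sources used here.

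An RPKM value is a whole multiple of what 1 read adds. The gene length implied by a column of the second table gave whole reads (within 0.003 reads, or a relative 3e-05 for high counts) in 68.8% to 70.8% of the values above 0, and was used where it gave whole reads in all 6 libraries, for 10381 genes, 58 of the 78 among them. For 5367 genes, 20 of the 78 among them, a length was fitted to the gene. Of 25033 rows, 4 sharing names were left out. Recovery, limma, edgeR and DESeq2 were tested on simulated data. The count test on recovered reads with edgeR called 489 genes higher and 409 lower, beside 395 and 368 with limma.

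Read counts had been planned for, and because the unit is RPKM the main test was limma with a trend on log2(RPKM / TMM factor + 1), with TMM factors and filterByExpr (minimum count 10) on recovered reads. P-values were adjusted by Benjamini-Hochberg over all genes tested. The limits on fold change and p are those of the paper's results. The members and the gene lists were chosen with earlier results of these data known. Genes named are those called, the 5 with the smallest p in each direction, the 5 highest by RPKM in HFD, those without LYC reads, those on either side of the threshold, and the stalk, decoding centre, S18 and misnamed members. Others are said to be chosen after their values were seen or are given by count.

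Intervals of fold changes have a level of 95%, and read numbers cover counting error only. Exact permutation of 3 against 3 libraries cannot go below 0.1 and was not used. Alternatives were the scaling, pseudocounts of 0.5 and 5, no filter, edgeR and DESeq2 on reads, removal of the length trend, a replicate block, other limits, and leaving out each library. Places, coding lengths, exons and promoter windows are from RefSeq on GRCm38.p6. Models were fitted in R 4.3.3 with edgeR 4.0.16, limma 3.58.1 and DESeq2 1.42.0, and tables and plots were made in Python 3.11.15 with pandas 2.3.3, matplotlib 3.10.9 and numpy 2.4.6.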

Additional observations from a re-analysis of the deposited data

How the results depend on the processing

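Mrpl24, Mrps31 and Mrpl58 were called in the same direction under every setting run on the call limits in use. The number of genes called higher, 4, became 7 with edgeR and 8 with DESeq2 on recovered reads and 2 at an unadjusted p below 0.001. It ran from 2 to 17 when a library was left out, with 17 without LYC3 and 2 without HFD1. Several of the 17 lay past the main filter's cutoff in no HFD library, so that count is not read as a result. The number called lower, 2, became 1 with a pseudocount of 5, with the length trend removed, with the replicate block, at an unadjusted p below 0.001 and at an adjusted p below 0.05, and ran from 1 to 3 when a library was left out (1 without HFD1, HFD2, HFD3 or LYC3). In the fits without an HFD library, with 29 to 32 genes tested, 6.25% to 10.3% were called higher and 3.12% to 3.45% lower, against 5.74% to 6.44% and 3.07% to 3.90% of all genes. No filter gave 6 and 3, which were 7.69% and 3.85% of the 78 genes against 2.74% and 4.57% of all 15749 genes in that fit, 10082 of which lay below the filter of the main analysis. Mrps6, with no read in LYC, was among the 3. Mrpl35 was the gene lost with the pseudocount, the length trend and the block. It was also lost with no filter and in 5 of the 6 fits without a library, and its log2 fold change ran from -1.65 to -0.91. Mrps14 was lost without the TMM factors, HFD1 or HFD3 (log2 fold changes of 1.06 to 1.35). Without the factors Mrpl34 was added on the lower side.

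The median of the large subunit ran from 0.15 to 0.65 and that of the small from 0.20 to 0.53 when a library was left out. They were -0.03 and -0.13 without the TMM factors, 0.12 and 0.01 with the length trend removed, 0.39 and 0.40 with edgeR, and 0.41 and 0.40 with DESeq2. The difference in the ratio of large to small subunit reads, -0.333, became -0.145 without Mrpl35 and Mrpl58, and ran from -0.383 to -0.264 when a library was left out, alternatives that were both chosen after seeing the data. Leaving out a library also changed the filter, to 29 to 66 genes tested, which is part of how these counts moved.

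Directions turned for genes near 0. Without the TMM factors Mrpl10 was at -0.07, Mrpl14 at -0.09 and Mrpl42 at -0.11, and with the length trend removed Mrpl14 was at -0.27 and Mrpl42 at -0.25. With edgeR and DESeq2, Mrpl12 was at 0.10 and 0.09 and Mrps18b at 0.35 and 0.38, and with a pseudocount of 5 Mrps18b was at 0.04. With a library left out, Mrpl12 ran from -0.46 to 0.49 and Mrpl14 from -0.16 to 0.40 over 6 fits. Mrps18b ran from -0.71 to 0.53 and Mrps30 from -0.04 to 0.62 over the 3 fits without a LYC library, the only ones with a value for them. The causes were not tested.

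In the table labelled RNA-seq, no filter gave 10 called higher (12.8%, against 3.79% of all genes), and leaving out a library, with 48 to 57 genes tested, gave 3 to 13 higher, 1 to 2 lower and a median of 0.20 to 0.75. The 13, without the LYC column numbered 3, were 22.8% against 10.1% of all genes. In the other 5 such fits 5.56% to 10.0% were called higher against 7.46% to 8.13%, and over all 6 fits 1.75% to 4.00% lower against 5.40% to 8.39%. No paired analysis was possible because the labels do not tie its columns to single samples. In Ribo-seq the sample titles give the same number in both groups to different names, and no source ties the numbers to a shared animal, litter or day. Deviations of same-numbered libraries correlated at 0.11, 0.03 and 0.00, and HFD1, LYC1 and LYC2 correlated best with their own number while the other 3 libraries did not. The replicate block gave 395 genes higher and 353 lower over all genes and changed no call among the members but that of Mrpl35.

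The depth of LYC limits what can be seen. The 48 genes tested had a median of 25 LYC reads over 3 libraries, and the 95% interval of a log2 fold change reached a median of 0.91 to either side.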
